A study of Homo sapiens with 6 samples.

Results

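SNPH, the gene of the mitochondrial anchor syntaphilin, and 7 genes of the motor and adaptor machinery that moves mitochondria along microtubules (TRAK1, TRAK2, RHOT1, RHOT2, KIF5B, KIF5A and KIF5C) were examined in RNA-seq of A549 cells. These 8 genes were picked out by symbol from the 26485 gene symbols counted in each library. SNPH heads the list because its counts were known to be far lower with the SFTPB sgRNA, so its values below are a description and carry no test. The other 7 genes were listed for their function, with earlier results of these data known. A549 is a human lung carcinoma cell line, and all of the cells carried lentiviral dCas9-KRAB (a nuclease-dead Cas9 fused to the KRAB repressor domain) selected with puromycin, and rat Nkx2-1 (a lung transcription factor) selected by GFP sorting. In the sgRNA #2 group, 3 libraries came from cells transiently transfected with a synthetic sgRNA that targets the first intron of SFTPB. In the sgRNA control group, 3 libraries came from cells given a non-targeted sgRNA. The comparison asked which genes other than SFTPB changed when dCas9-KRAB was sent to this site. The study calls its triplicates biologically independent, and they come from 1 cell line.

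Mitochondria are carried towards microtubule plus ends by kinesin-1, whose heavy chains are encoded by KIF5A, KIF5B and KIF5C. The adaptors TRAK1 and TRAK2 link the motor to the Miro GTPases RHOT1 and RHOT2, which sit in the outer mitochondrial membrane and sense calcium. Syntaphilin, best known from axons, holds mitochondria in place on microtubules, and it was first described as a protein that binds syntaxin-1. KIF5B is the widely expressed kinesin-1 heavy chain, while KIF5A and KIF5C are known as neuronal forms.

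The sequences below are shown because the sgRNA #2 target shares its PAM-proximal end with a site inside SNPH. Each is given 5′ to 3′ on its own strand, with the bases that match sgRNA #2 without a break up to the PAM in capitals and the PAM last in lower case.
SFTPB target: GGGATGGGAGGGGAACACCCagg
SNPH site: agcgcgggcGGGGAACACCCagg
TRAK1 best match: ccacaggcagcatgACACCCagg
RHOT2 best match: gggtggacccggggACACCCagg
The SFTPB target lies on the minus strand of chromosome 2 of hg38 from 85668529 to 85668551 and was the 1 exact match of the 20 bases with an NGG in the genome. The SNPH site lies on the minus strand at chr20:1266593-1266615, opposite to the gene, and shares the 11 bases next to the PAM. It differs from the guide at 5 positions, which are G1A, G3C, A4G, T5C and A9C (guide base first, with position 1 at the PAM-distal 5′ end). Its centre lies between 288 and 324 bp downstream of 3 annotated SNPH start sites. Within 1000 bp of the start sites of the other 7 genes, the longest such match before an NGG was 4 to 6 bases. Both strands were searched, and the TRAK1 and RHOT2 sites above are the 2 with 6. Over the 20 bases, these best matches differed from the guide at 7 (RHOT2 and KIF5A) to 12 positions (RHOT1 and KIF5B). They were picked by the unbroken match first, so sites with fewer mismatches in all were not sought. The 10 PAM-proximal bases GGGAACACCC followed by NGG occurred within 1000 bp of 108 of 163713 start sites (0.0660%), and around 28 of 13066 tested genes (0.214%). With 11 bases, 9 of these genes (0.0689%) held a match, among them SNPH and, as the exact target, SFTPB. This length was set by the SNPH match itself, so the share is a description only. Whether the other genes with a match differed between the groups was not examined. A match describes the letters only, and whether dCas9-KRAB sat at these sites was not tested.

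In GENCODE release 44, SNPH spans chromosome 20 from 1266280 to 1309328 on the plus strand. The site falls in intron 1 of 3 of its 4 annotated transcripts, while the 4th starts further downstream. This intron of 256 bp, at chr20:1266398-1266653, is printed on the plus strand with the site in capitals, where it reads as the reverse complement of the line above.
SNPH intron 1: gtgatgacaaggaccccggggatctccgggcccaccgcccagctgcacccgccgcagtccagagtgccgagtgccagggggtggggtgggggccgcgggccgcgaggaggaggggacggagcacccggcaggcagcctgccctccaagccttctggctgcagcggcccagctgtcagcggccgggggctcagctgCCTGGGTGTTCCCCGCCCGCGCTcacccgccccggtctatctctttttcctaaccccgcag
Its GC content is 73.4%, and the site begins 195 bases after the end of exon 1.

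SNPH was almost absent from the sgRNA #2 libraries. The sgRNA control replicates 1, 2 and 3 held 206, 251 and 269 SNPH reads, against 1, 1 and 0 in the same-numbered sgRNA #2 replicates. In CPM, the counts of a gene per 1000000 counts of a library after TMM normalization in edgeR, the control mean was 34.5 ± 1.54 CPM and the sgRNA #2 mean 0.0973 ± 0.0844 CPM (SD, n = 3 each). Every control library lay far above every sgRNA #2 library, and the control libraries differed little among themselves, between 32.7 and 35.5 CPM. Pooled over the libraries, 2 reads against 726, after scaling to the normalized library sizes, left 0.293% of the control level (95% exact binomial interval 0.0354 to 1.06%), or 341-fold less (interval 94.2 to 2824). The interval covers counting error only. Each sgRNA #2 library was below the floor of 3 counts, too few to set a level for a single library. The gene-level counts do not separate the transcripts.

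**Figure D1:**
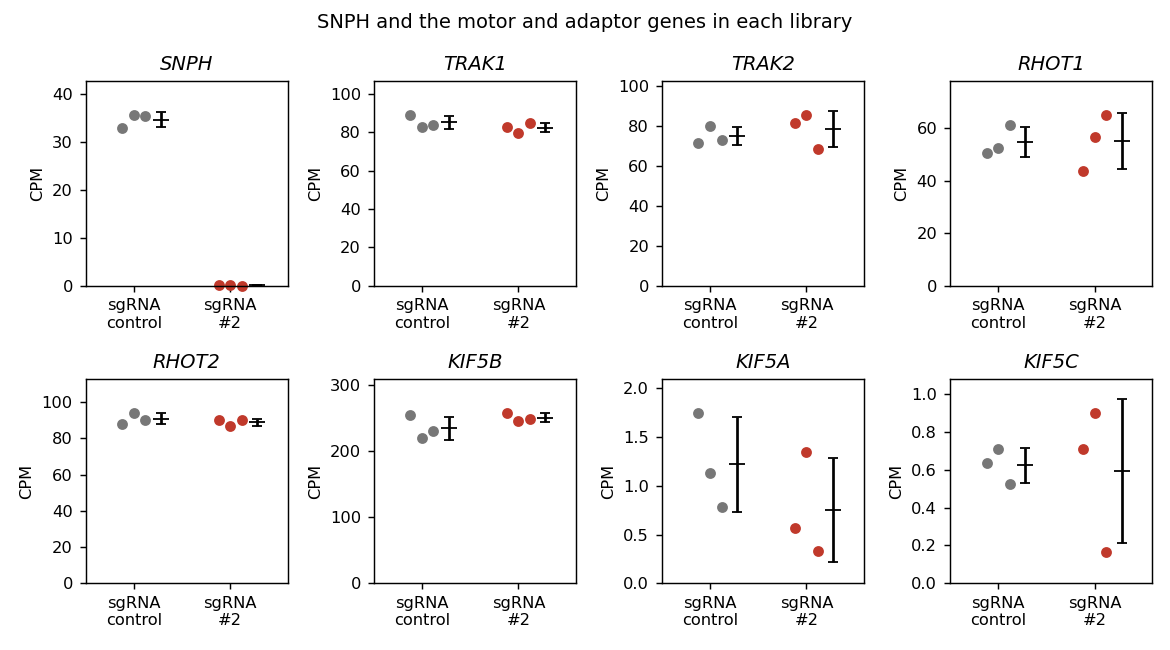
CPM of each of the 8 genes in the 3 sgRNA control (grey) and 3 sgRNA #2 (red) libraries, with a black bar for the mean ± SD beside each group; each panel has its own scale from 0. SNPH drops from 32.7 to 35.5 CPM to the bottom of its axis, while the libraries of the groups overlap for the other 7 genes.

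The tested genes around SNPH showed no fall of this size. RAD21L1, the gene of a meiotic cohesin subunit and the 1 annotated gene that overlaps SNPH (on the same strand), was listed at 0 counts in all 6 libraries. SDCBP2, which encodes a syntenin-like adaptor and ends just past SNPH, had at most 2 counts in any library. Of 18 other counted genes that start within 500 kb of the SNPH start, 7 had enough reads to test, and 0 of the 7 passed an adjusted p of 0.05, against 2.69% of all 13356 tested genes (quasi-likelihood test of edgeR, p-values adjusted by Benjamini-Hochberg over the whole table). None of the 7 had an unadjusted p under 0.05, as 11.1% of all tested genes did, and DESeq2's Wald test also called 0.
PSMF1, a proteasome inhibitor gene 153 kb upstream, had 197 ± 2.82 CPM with the sgRNA control and 191 ± 8.27 CPM with sgRNA #2 (SD, n = 3 each), a log2 fold change of -0.04 (95% interval -0.18 to 0.09). FKBP1A, which encodes the FK506-binding protein FKBP12 and starts 127 kb downstream, had 225 ± 12.2 and 214 ± 5.46 CPM, a log2 fold change of -0.07 (interval -0.21 to 0.06). For these well counted neighbours, a change of 2-fold lies outside the interval.
The closest tested genes were less well measured. TMEM74B, a transmembrane protein gene whose start lies 80.9 kb upstream, had 11 to 26 counts per library and a log2 fold change of -0.34 (interval -1.04 to 0.36). SDCBP2-AS1, a long noncoding RNA 59.1 kb downstream, had a log2 fold change of -0.13 (interval -0.59 to 0.33), which turned to 0.0797 without sgRNA #2 replicate 3. Their groups overlapped, and so did those of the other 5, whereas the groups did not overlap for 15.6% of all tested genes.
Within 1000 kb, 1 of 19 tested genes passed, against 2.69% of all tested genes. This was TRIB3, a stress-induced pseudokinase gene 903 kb upstream that was named after its values were seen. TRIB3 was higher with sgRNA #2, at 192 ± 19.2 CPM against 158 ± 2.54 CPM (SD, n = 3 each, log2 fold change 0.28, SE 0.0735, adjusted p = 0.0463 from the edgeR test). Its adjusted p from edgeR rose to 0.0862, 0.132 and 0.107 without sgRNA control replicates 1, 2 and 3, and to 0.237 and 0.206 without sgRNA #2 replicates 1 and 2, and over all alternatives it ranged from 3.39e-07 to 1.0. With the replicate number as a block, SRXN1, the gene of the antioxidant enzyme sulfiredoxin, was also called (log2 fold change -0.12, adjusted p = 0.0317 from edgeR, against 0.618 without the block). That made 2 of the 19, in a fit that called 10.0% of all tested genes.

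**Figure D2:**
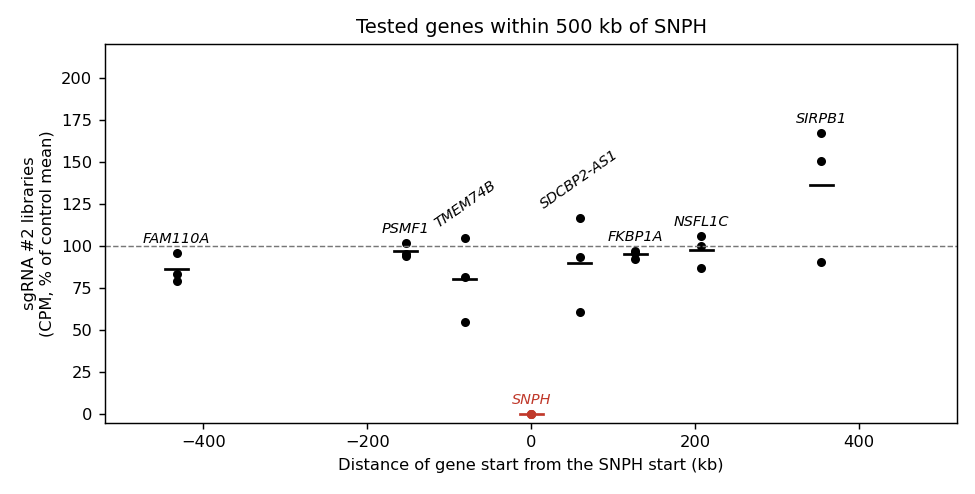
CPM of each sgRNA #2 library as a percentage of the control mean (points; bars are their means) for SNPH (red) and the 7 tested genes that start within 500 kb of it (black), against the distance of their starts from that of SNPH in kb. SNPH lies at the bottom, while the means of its neighbours lie around the dashed line at 100%, from 80.3% for TMEM74B to 136% for SIRPB1, both with few reads.

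None of the motor and adaptor genes passed the test. Of the 7, 5 had at least 10 counts in at least 3 libraries and could be tested, and 0 of these 5 had an adjusted p under 0.05 in the edgeR test, against 2.69% of all tested genes. DESeq2's Wald test called 0 of the 5 as well, and 0 had an unadjusted p under 0.05, as 11.1% of all tested genes did. With a log2 fold change of at least 1 required as well, 0 of the 5 passed in either direction, against 0.719% of all tested genes, 0.689% lower and 0.0299% higher. For all 7 genes the sgRNA #2 libraries overlapped the control libraries in CPM, whereas the groups did not overlap for 15.6% of the tested genes.

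The TRAK adaptors were well counted in every library. TRAK1 had 559, 585 and 637 counts in sgRNA control replicates 1, 2 and 3 and 584, 531 and 509 in sgRNA #2 replicates 1, 2 and 3. This was 85.1 ± 3.31 CPM with the sgRNA control and 82.4 ± 2.55 CPM with sgRNA #2 (SD, n = 3 each), a difference smaller than the spread between libraries. Its log2 fold change was -0.05 (SE 0.0698, 95% interval -0.19 to 0.10, adjusted p = 0.891 from the edgeR test).
TRAK2 had 451, 568 and 558 counts with the sgRNA control and 575, 571 and 412 with sgRNA #2, with means of 75.1 ± 4.61 and 78.6 ± 8.95 CPM (SD, n = 3 each). The lowest and the highest of the 6 TRAK2 values were both in sgRNA #2 libraries, at 68.5 CPM in replicate 3 and 85.6 CPM in replicate 2. The TRAK2 log2 fold change was 0.07 (SE 0.0862, interval -0.11 to 0.25, adjusted p = 0.866 from the edgeR test). TRAK2 overlaps STRADB, a pseudokinase gene on the opposite strand with up to 203 counts, and the strand setting of the counting is not given in the sources used here, so some reads could belong to either gene. Per length, the ratio of TRAK1 to TRAK2 was 0.791 ± 0.0730 with the sgRNA control and 0.738 ± 0.110 with sgRNA #2 (SD, n = 3 each).

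The Miro GTPase genes behaved alike in that their group means were nearly equal, but RHOT1 was the more variable of the pair. RHOT1 had 319, 371 and 466 counts in sgRNA control replicates 1, 2 and 3 and 309, 377 and 391 in the same-numbered sgRNA #2 replicates, with means of 54.8 ± 5.59 and 55.1 ± 10.6 CPM (SD, n = 3 each). The spread within the sgRNA #2 group, from 43.9 to 65.0 CPM, was far larger than the difference between the means. Its log2 fold change was 0.00 (SE 0.118, 95% interval -0.25 to 0.25, adjusted p = 1.00 from the edgeR test), and its sign turned with the library left out.
RHOT2 had 554, 665 and 688 counts with the sgRNA control and 634, 578 and 541 with sgRNA #2, that is, 90.8 ± 3.03 and 88.9 ± 1.93 CPM (SD, n = 3 each). The RHOT2 log2 fold change was -0.03 (SE 0.0676, interval -0.17 to 0.11, adjusted p = 0.924 from the edgeR test). Per length, the RHOT2 level was 2.11 ± 0.213 times that of RHOT1 with the sgRNA control and 2.09 ± 0.443 times with sgRNA #2 (SD, n = 3 each).

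Of the kinesin-1 heavy chains, A549 cells carried almost only KIF5B. KIF5B had 1603, 1558 and 1754 counts with the sgRNA control and 1820, 1639 and 1500 with sgRNA #2, that is, 235 ± 17.7 and 251 ± 6.54 CPM (SD, n = 3 each). All 3 sgRNA #2 values, between 246 and 258 CPM, fell above the control mean but around the highest control library, which had 255 CPM. The log2 fold change of 0.10 (SE 0.0675, 95% interval -0.05 to 0.24) had an adjusted p of 0.686 in the edgeR test and 0.188 in edgeR with the replicate block.
KIF5A had 11, 8 and 6 counts with the sgRNA control and 4, 9 and 2 with sgRNA #2, too few for the count filter. The pooled sgRNA #2 level was 63.8% of the control level, with a 95% exact binomial interval from 31.3 to 126% for counting error, so a 2-fold fall and no change both lie within it and a difference was not detectable at this depth. Without the count filter its log2 fold change was -0.64 (SE 0.518, adjusted p = 0.802 from edgeR). KIF5A overlaps the dynactin gene DCTN2 on the opposite strand, which had up to 646 counts, and reads of the pair cannot be assigned without the strand setting.
KIF5C had 4, 5 and 4 counts with the sgRNA control and 5, 6 and 1 with sgRNA #2, or 98.2% of the control level (interval 40.9 to 233%). Scaled for exon length, KIF5B made up 99.8% ± 0.114 (SD, n = 6) of the summed level of the 3 KIF5 genes, between 99.6 and 99.9% in the single libraries.

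**Figure D3:**
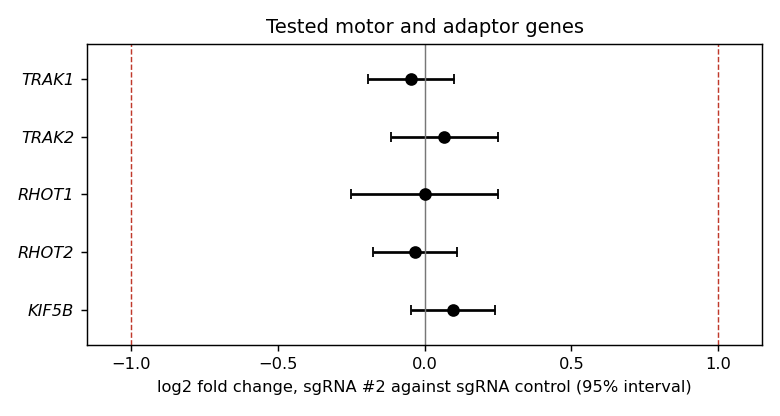
Log2 fold change of the 5 tested motor and adaptor genes, sgRNA #2 against sgRNA control, with 95% intervals from the edgeR fit; the dashed lines mark a log2 fold change of 1 in either direction. Every interval spans 0 and stays inside -0.25 to 0.25.

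In the control cells, SNPH had a lower level per length than each of its 5 tested partners. On the scale of CPM per kb of annotated exon, KIF5B had the highest level of the 8 genes, at 40.1 ± 3.03 (SD, n = 3), followed by RHOT2 at 17.6 ± 0.587 and TRAK2 at 9.99 ± 0.614. RHOT1, at 8.41 ± 0.858, and TRAK1, at 7.88 ± 0.307, came next, and the ranges of these neighbours overlapped. SNPH had 6.05 ± 0.269 CPM per kb, below TRAK1 in every control library and above KIF5A, at 0.0998 ± 0.0398, by a wide margin. KIF5C was lowest, at 0.0188 ± 0.00277. The other adjacent pairs in this order did not overlap between control libraries. SNPH stood above 46.7% of the 13066 tested genes with a known length, TRAK1 above 54.5% and KIF5B above 92.1%. With sgRNA #2, SNPH was at 0.0170 ± 0.0148 CPM per kb (SD, n = 3) on 2 reads in all. Exon lengths are those of all annotated transcripts together, which lowers the level of genes with many long transcripts such as KIF5C.

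**Figure D4:**
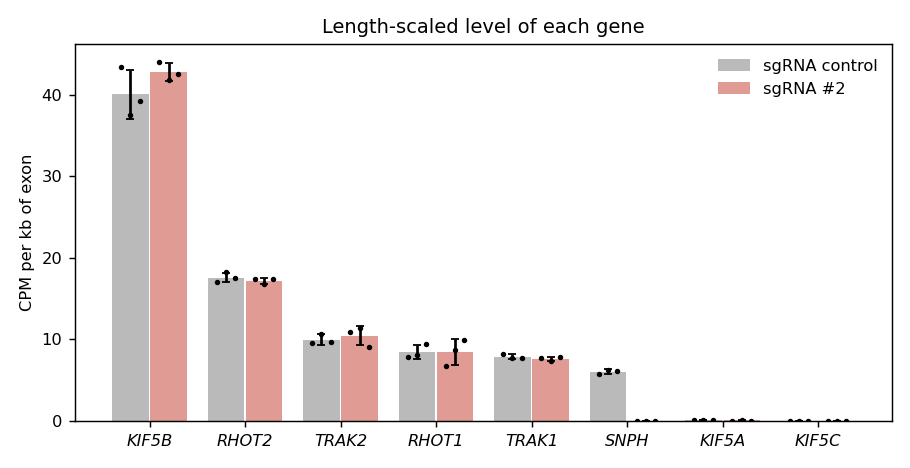
Level of the 8 genes in CPM per kb of annotated exon, ordered by the control mean; bars are group means, error bars SD and points the 3 libraries of each group (grey, sgRNA control; red, sgRNA #2). SNPH has a control bar of 6.05 next to an sgRNA #2 bar too low to see, while KIF5B, RHOT2, TRAK2, RHOT1 and TRAK1 have paired bars of like height and those of KIF5A and KIF5C are too low to compare.

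The wider transport and mitochondrial machinery was examined through 5 lists of genes, chosen by function with earlier results of these data known. Together they hold 88 counted genes, of which 83 were tested and 2 passed an adjusted p of 0.05, both lower with sgRNA #2. This is 2.41% of the 83, against 2.69% of all tested genes. The median log2 fold change of the 83 genes was 0.01 and that of all tested genes 0.00. With the replicate block 5 of the 83 passed, 3 lower and 2 higher, against 10.0% of all tested genes (6.06% lower and 3.97% higher), in a fit whose p-values rest on the dispersion trend alone.

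The further kinesins and kinesin light chains (10 tested), the dynein and dynactin genes (22 tested) and the known partners of Miro and TRAK (17 tested) held no gene that passed. Of all tested genes, 2.69% passed. In each of these 3 lists, 1 gene had an unadjusted p under 0.05, against 11.1% of all tested genes, and DESeq2's Wald test called none. The list medians of log2 fold change all lay within 0.05 of 0. DYNC1H1, the heavy chain of the dynein motor that carries mitochondria the other way, had 644 ± 59.8 CPM with the sgRNA control and 688 ± 45.3 CPM with sgRNA #2 (SD, n = 3 each), a log2 fold change of 0.10 (95% interval -0.06 to 0.25). The most abundant genes of the lists stayed within a narrow range. PAFAH1B1, which encodes the dynein regulator LIS1, had a log2 fold change of 0.07 (interval -0.06 to 0.21). KIF1C, a kinesin-3 motor gene, had -0.08 (interval -0.22 to 0.06), and KIF3B, a kinesin-2 motor gene, had 0.09 (interval -0.05 to 0.22).
OGT, the O-GlcNAc transferase that modifies TRAK1, had a log2 fold change of 0.07 (interval -0.06 to 0.21). CENPF, a kinetochore protein that also binds Miro, had 0.05 (interval -0.09 to 0.18). With the block, KLC2, a kinesin light chain gene (log2 fold change 0.19, adjusted p = 0.0341 from edgeR), DCTN1, the largest dynactin subunit gene (-0.18, adjusted p = 0.00843 from edgeR), and MAPK8IP3, the JIP3 scaffold gene (0.23, adjusted p = 0.00191 from edgeR), were called. Without it their adjusted p-values from edgeR were 0.435, 0.233 and 0.317. These 3 genes were named after their values were seen.

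Among the 17 tested fusion and fission genes, 1 was lower, INF2, which encodes a formin that builds actin where mitochondria divide. INF2 had 194, 229 and 203 CPM in sgRNA control replicates 1, 2 and 3 and 167, 172 and 173 CPM in sgRNA #2 replicates 1, 2 and 3, so the groups did not overlap. The INF2 log2 fold change was -0.29 (SE 0.0701, adjusted p = 0.0291 from the edgeR test). The call did not hold without sgRNA control replicate 2 or 3 (adjusted p = 0.160 and 0.0523 from edgeR) or without sgRNA #2 replicate 1, 2 or 3 (0.158, 0.0846 and 0.0667 from edgeR). Over all alternatives, its adjusted p ranged from 7.45e-08 to 1.0. The list median was 0.01.
Among the 17 tested genes of mitophagy and Miro turnover, 1 was lower, SQSTM1, the gene of the autophagy receptor p62. SQSTM1 had 1068, 1031 and 1090 CPM in the control libraries and 781, 694 and 746 CPM with sgRNA #2, and every sgRNA #2 library lay below every control library. Its log2 fold change was -0.52 (SE 0.0654, adjusted p = 7.24e-05 from the edgeR test), between -0.56 and -0.48 over all alternatives. The list median was -0.01. Each of these lists thus had 1 of 17 tested genes (5.88%) called lower, against 2.22% of all tested genes.

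Because syntaphilin is best known from neurons, 15 neuronal genes were also examined, again chosen with earlier results of these data known. STMN2, ELAVL3, ELAVL4, GAP43 and SYN1 had at most 3 counts in every library, and 10 of the 15 were tested. Of these, 2 passed the test as higher with sgRNA #2, against 0.464% of all tested genes, and 0 passed as lower, against 2.22%. The neuronal genes did not all move one way, since 4 of the 10 had a log2 fold change below 0. The list median was 0.16, against 0.00 for all tested genes. An unadjusted p under 0.05 in edgeR, in either direction, was found for 5 of the 10, against 11.1% of all tested genes. The value largest in size was that of RBFOX3, the gene of the neuronal splicing factor NeuN, which was named after its values were seen. RBFOX3 had 11, 13 and 30 counts in sgRNA control replicates 1, 2 and 3 and 8, 11 and 7 in the same-numbered sgRNA #2 replicates, and in CPM the groups did not overlap. Its log2 fold change of -0.95 (SE 0.391, 95% interval -1.77 to -0.12) did not pass, with an adjusted p of 0.329 from edgeR and 0.0844 with the replicate block. STX1A, the gene of the SNARE protein syntaxin-1A, had 319, 415 and 398 counts with the sgRNA control and 499, 459 and 437 with sgRNA #2, with means of 53.9 ± 4.24 and 70.8 ± 1.93 CPM (SD, n = 3 each). The groups did not overlap, and its log2 fold change was 0.39 (SE 0.0801, adjusted p = 0.00970 from the edgeR test).
SNAP25, which encodes a SNARE partner of syntaxin-1, had 110, 104 and 138 counts with the sgRNA control and 163, 159 and 145 with sgRNA #2, with means of 16.8 ± 1.81 and 23.7 ± 0.497 CPM (SD, n = 3 each). The SNAP25 log2 fold change was 0.50 (SE 0.119, adjusted p = 0.0283 from the edgeR test). DESeq2's Wald test gave an adjusted p of 0.0800, and over all alternatives it ranged from 1.96e-04 to 1.0. Without sgRNA control replicate 2 the adjusted p from edgeR was 0.153, and without sgRNA #2 replicate 1, 2 or 3 it was 0.0813, 0.0921 or 0.0839. With the replicate block 5 of the 10 genes passed, all higher, adding MAP2, NEFL and ENO2, against 3.97% of all tested genes called higher in that fit. The summed level of the 15 genes was 823 to 901 CPM in the control libraries and 887 to 980 CPM with sgRNA #2.

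**Figure D5:**
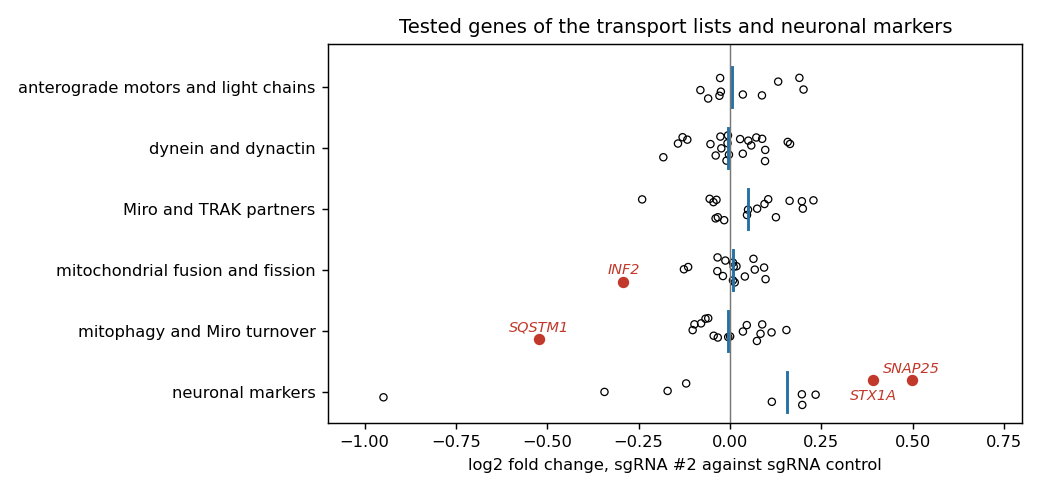
Log2 fold change, sgRNA #2 against sgRNA control, of the tested genes of 5 transport and mitochondrial lists and of the neuronal genes; filled red points passed an adjusted p of 0.05 and blue bars are list medians. The transport lists crowd around 0 with SQSTM1 and INF2 apart on the left, and STX1A and SNAP25 stand on the right of the neuronal row.

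The genes whose profile over the 6 libraries was most like that of SNPH were sought by expressing each library's CPM as a percentage of the gene's control mean and taking the root mean square difference from SNPH, as a description without a test. SFTPB, the targeted gene of pulmonary surfactant protein B, was closest, at 4.03 percentage points, and kept 1.61% of its control level. MAGED2, a MAGE family gene, differed by 5.17 points and kept 6.88%. GDF5, a BMP family ligand gene, differed by 6.31 points on few reads, with 11, 15 and 16 counts against 1, 1 and 1. SLC12A4, the gene of the potassium-chloride cotransporter KCC1, differed by 6.75 points and kept 5.13%. SNPH itself kept less than any of these 4 genes. By the share of the control mean left, SNPH ranked 2 and SFTPB ranked 4 from the lowest of 13356 tested genes. The genes most like SNPH by profile are therefore not simply those that kept the least.

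The libraries held 6047554 to 7584611 counts on genes, and the totals of the groups overlapped. SFTPB fell from 416 ± 9.90 to 6.71 ± 1.28 CPM (SD, n = 3 each), which checks the labels. Of the epithelial markers, KRT8 and KRT18 were abundant, EPCAM had 44 to 76 counts and KRT19 had at most 4 in any library. CDH1, the E-cadherin gene, was lower with sgRNA #2 (log2 fold change -0.34, adjusted p = 0.00728 from the edgeR test), 1 of 4 tested epithelial markers, against 2.22% of all tested genes called lower. With the replicate block KRT8 was called lower too (log2 fold change -0.13, adjusted p = 0.0234 from edgeR, against 0.683 without the block), in a fit that called 6.06% of all tested genes lower. The summed level of the 5 epithelial markers was 2368 to 2954 CPM with the sgRNA control and 2174 to 2672 CPM with sgRNA #2. Of 8 blood, endothelial and fibroblast markers, 6 (PTPRC, CD3E, PECAM1, VWF, COL1A2 and DCN) had at most 3 counts in every library, and the other 2 (CD68 and COL1A1) had no adjusted or unadjusted p under 0.05 in edgeR. Their part in the results above was not tested. Fewer cells with a transcript and less of it per cell cannot be told apart in these bulk libraries.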

How the data were processed

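RNA-seq of 6 libraries of A549 cells was analysed, 3 per group. The authors deposited 1 table of raw counts for each library, with gene symbols as rows, from htseq-count. Per the labels, Trim Galore, FastQC, Bowtie2 2.3.3.1, SAMtools, Picard and HTSeq were used with hg38. Strand setting and annotation are not given in the sources used here. Left out were reads listed by htseq-count with no feature (19.7 to 21.1% of all listed) and ambiguous reads (2.61 to 2.75%). Any others not assigned to a gene were also left out.

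The 13356 genes that reached 10 counts in 3 or more libraries were tested in edgeR 4.0.16 (R 4.3.3, TMM, quasi-likelihood test), with Benjamini-Hochberg adjustment over all of them. A gene passed where its adjusted p was under 0.05. With the study's further cut-off, a log2 fold change of at least 1 in size, 0.719% passed. The SE is the size of the log2 fold change over the square root of F. On simulated counts of 13356 genes with 200 changed 4-fold, 196 were recovered with 1 false call where both cut-offs, adjusted p and fold, were required. False calls by adjusted p alone were not counted, and the simulated libraries were drawn independently, without pairing. A floor of 3 counts was 0.396 to 0.496 CPM, for counting error only. Replicates of a group differed by more than sampling noise (chi-square per degree of freedom 2.73 to 3.61). Alternatives were DESeq2 1.42.0, other scalings and filters, each library left out, and a block for the replicate number in the labels. Same-numbered libraries deviated together (correlations 0.269, 0.287 and 0.291). The main fit held the group only and did not take this pairing into account. Only the fit with the replicate block did.

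Coordinates and start sites are from GENCODE release 44 on GRCh38 (hg38), where 23161 symbols matched by name, 1384 by an older symbol and 1940 not. The sgRNA sequence came from the study's supplementary files. The genes named are the 8 members, SFTPB, up to 4 called genes of each list or else its 2 most abundant, the neighbours nearest to SNPH, and the 5 genes most like SNPH. Of these and of the marker genes, 1 each is not reported here. The members and lists were chosen with earlier results of these data known.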

Additional observations from a re-analysis of the deposited data

How the results depend on the processing

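The counts of motor and adaptor genes and of SNPH neighbours within 500 kb that passed were 0 in all 13 alternative fits. Within 1000 kb, 1 neighbour passed. The share of SNPH left was 0.294% with RLE factors and with total counts, and 0.221 to 0.421% with 1 library left out. The genes passing the adjusted p numbered 359, against 1339 with the replicate block, 583 without a count filter, 21 in DESeq2's test of a change above 2-fold, and 223 to 348 with 1 library left out. With the fold cut-off as well, the count was 96, against 122 with the block, 63 with 10 counts required in every library (which leaves fewer genes tested), 21 in the DESeq2 test above 2-fold, and 78 to 106 with 1 library left out. Of the transport and mitochondrial lists, 2 genes passed, against 5 with the block, 0 in the DESeq2 test above 2-fold, and 1 to 2 with 1 library left out. In the blocked fit the prior degrees of freedom were infinite, against 13.0 without the replicate block, so its smaller p-values rest on the dispersion trend alone, and the block changed no call other than those given beside the results. Without length scaling, KIF5B held 99.3% of the KIF5 reads.

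RHOT1 turned sign without a count filter (-3.84e-05), with 10 counts required in every library (-0.0025) and with 1 library left out (-0.13 to 0.15). COL1A1 ranged from -0.0216 to 0.26 and SDCBP2-AS1 from -0.35 to 0.0797 with 1 library left out. The cause was not tested. Of 362 values of 28 named genes, 330 kept direction and call.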
